A study of Mus musculus with 24 samples.

Results

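Smad3fl/fl bone marrow macrophages treated with TGF-β1 were compared with untreated macrophages of the same genotype, in all 3 treated and 3 untreated libraries of that genotype among the 24 libraries of the series. The members were chosen by their labels alone. Both groups came from C57BL/6 mice whose Smad3 gene is flanked by loxP sites and which, per the genotype label, carry no Cre recombinase, so the floxed gene is expected to be intact. Marrow was taken from the tibiae of mice of 2 to 3 months. It was kept for 24 h with 15% fetal calf serum, 10% medium conditioned by WEHI-3 cells (a source of IL-3) and 12 ng/ml of the macrophage growth factor CSF-1, and the cells that had not attached were grown for 48 h with 120 ng/ml CSF-1. All cells then went without serum for about 16 h, and the treated group received TGF-β1 at 10 ng/ml for 4 h. The other 3 genotypes, Smad2fl/fl and the myeloid knockouts MyS2KO and MyS3KO, in which Cre is driven by the lysozyme gene Lyz2, were used only in tests of whether the response differed. Nothing in the labels ties a library to its own mouse, so p-values measure only the spread between these libraries.

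TGF-β1 is a secreted cytokine that binds a complex of type II and type I receptor kinases. The type I receptor, encoded by Tgfbr1, phosphorylates SMAD2 and SMAD3, which join SMAD4, enter the nucleus and bind DNA beside other factors such as AP-1. The pathway also raises its own inhibitors, among them the inhibitory SMADs and ubiquitin ligases that act on the receptor. In macrophages TGF-β1 is known for dampening inflammatory genes, for attracting precursors and for maintaining the gene program of microglia.

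The untreated libraries held 22.4, 21.7 and 23.3 M counted reads (M, 1e6) and the treated ones 19.0, 20.6 and 16.9 M. Smad3 itself was at 443, 460.0 and 369 CPM (counted reads per 1e6 of the scaled library total) in untreated libraries 1 to 3 and at 404, 442 and 399.6 in treated libraries 1 to 3, the same level in both groups within the spread (adjusted p = 0.918). Macrophage markers were high in every library, with Adgre1, which encodes the surface protein F4/80, between 9786 and 15908 CPM untreated and between 8281 and 10434 treated. The summed level of 11 markers of B, T and NK cells was 6.225 to 13.95 CPM untreated and 7.341 to 13.93 treated, mostly Cd4 and Ms4a1, with Cd3e at 0. That of 10 neutrophil markers was 2.77 to 19.1 and 3.86 to 21.2 CPM, highest in library 1 of both groups, and that of 9 dendritic cell markers was 33.6 to 41.4 and 20.3 to 26.5 CPM, mostly Xcr1. Of 9 erythroid and megakaryocyte markers (89.7 to 173.5 and 78.2 to 157 CPM), Pf4 made up most and Gata1 was at 0, and of 8 endothelial markers (56.5 to 147 and 58.2 to 103.5 CPM), Kdr and Vwf made up most. Markers of fibroblasts and stroma, 9 in number, summed to 0.986 to 1.89 CPM untreated and 0.997 to 3.41 treated. The part of other cell types in the results was not tested. The libraries numbered 3 stood apart in both groups. The first principal component of the 6 libraries (45.9% of the variance) separated treated from untreated libraries, but untreated library 3 lay far from untreated 1 and 2. On the second (24.1%) the number 3 libraries lay lowest, at -31.9 untreated and -32.6 treated. Treated libraries 1 and 2 lay at -9.4 and -4.5 on it, and untreated 1 and 2 at 34.9 and 43.5. Nlrp1a, an inflammasome sensor whose gene content differs between mouse strains, was read at 12.9 and 9.01 CPM in untreated and treated library 3 and at 0.04 or less in the other 4. Trim12a, a gene of a similarly variable cluster, was at 0.423 and 0.839 CPM in the number 3 libraries against 38.7 to 73.1 in the others. What sets the number 3 libraries apart was not tested.

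**Figure D1:**
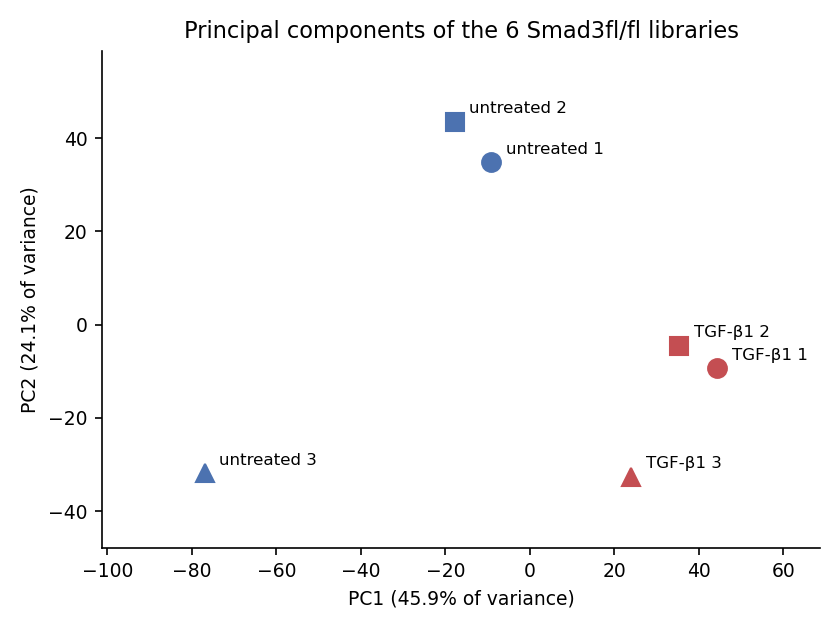
Principal components 1 (x axis) and 2 (y axis) of log2 CPM in the 6 Smad3fl/fl libraries, 1 point per library, with the untreated and treated groups in separate colours and the library number beside each point. The treated libraries lie between 24.1 and 44.4 on component 1 and the untreated ones between -76.9 and -9.1, with untreated library 3 at the far end.

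After 4 h with TGF-β1, 1714 of 14261 tested genes (12%) had changed, 910 of them upwards (6.38%) and 804 downwards (5.64%), at an adjusted p under 0.05 in the edgeR quasi-likelihood test with Benjamini-Hochberg adjustment. This threshold is the meaning of rose, fell and called throughout. Over all called genes the rises were larger than the falls. Among called genes 523 at least doubled (3.67% of tested genes) and 238 at least halved (1.67%), and changes of at least 4-fold numbered 169 upwards and 27 downwards. The median log2 change (the log base 2 of treated over untreated, from the fit) was 1.10 over the raised and -0.77 over the lowered genes, against -0.03 over all tested genes. The summed mean level of the raised genes went from 45039.8 to 87309.8 CPM, and that of the lowered genes from 117254 to 70850.2 CPM. At untreated levels above 100 CPM, 294 of 1933 tested genes fell and 116 rose, whereas below 1 CPM 111 of 3112 rose and 12 fell. Among called genes of like untreated level, rises and falls were closer in size. Their median log2 changes were 2.484 and -2.668 under 1 CPM and 1.326 and -1.245 from 1 to 10 CPM. From 10 to 100 CPM they were 0.897 and -0.7513, and above 100 CPM 0.77 and -0.6733. All 910 raised and 801 of the 804 lowered genes changed in the same direction in each of the 3 pairs of libraries with the same number. The genes were called from these same libraries, so this agreement is not separate evidence. Groups did not overlap for 903 of the raised and 749 of the lowered genes, and for 4046 of all 14261 tested genes (28.4%). Genes named by size below were taken only from called genes whose groups did not overlap.

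Smad3fl/fl libraries with the same number varied together. A fit with library number as a block in each genotype called 3306 genes (23.2%), 1564 higher and 1742 lower, including 1711 of the 1714. A change seen only with this block is given below with its p. The count fell to 1136 without treated library 1, and to 1130, 1138 and 978 without the number 1, 2 and 3 pairs, and no called gene changed sign in any of these fits. Among the 261 called genes that the rules of this comparison name, 146 kept their call in every alternative fit. Where a call described below was lost when 1 library or 1 numbered pair was left out, those libraries are given beside it. A fit of the 6 Smad3fl/fl libraries alone also lost the calls of Apof, Ccl3, Cxcl1, Eif4g2, F2r, Hspa8, Il1b, Il27, Jun, Lcp1, Lrp1, P2ry12, Plaur, Serp1, Stat2, Tlr1, Tlr6, Vcan, Vegfa and Xdh. Without the filter on low counts those of Eif4g2, Lcp1, Lrp1 and Tlr6 were lost. Over all genes that the rules name, the 6-library fit lost 78 calls and the fit without the filter 19. A fit of the 12 libraries of the Smad3 line lost 57, which are not listed here by gene. Counts over gene lists are small, and where one of 2 or more moved by over 1.5 times in the 9 fits that left out 1 library or pair (the leave-out fits), the counts in these fits are given. Every list count below is to be read against the shares over all tested genes, 12% called, 6.38% higher and 5.64% lower. Reads of overlapping genes cannot be told apart where the strand setting is not given. For Cx3cr1, Angptl2, Cebpd, Cebpb, Pdgfa, Plec, Kif3c, Rtl5, Adamts4, Tgm2, Lpar6, Vcl, Il27, P2ry12, Runx2, Bach2, Irak3, Cxcl16, Asb2, Vcan, G6pdx, Rbl2, Tnfrsf22, Ltc4s and Tnc, named or plotted below, an overlapping gene held at least 10% as many reads.

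**Figure D2:**
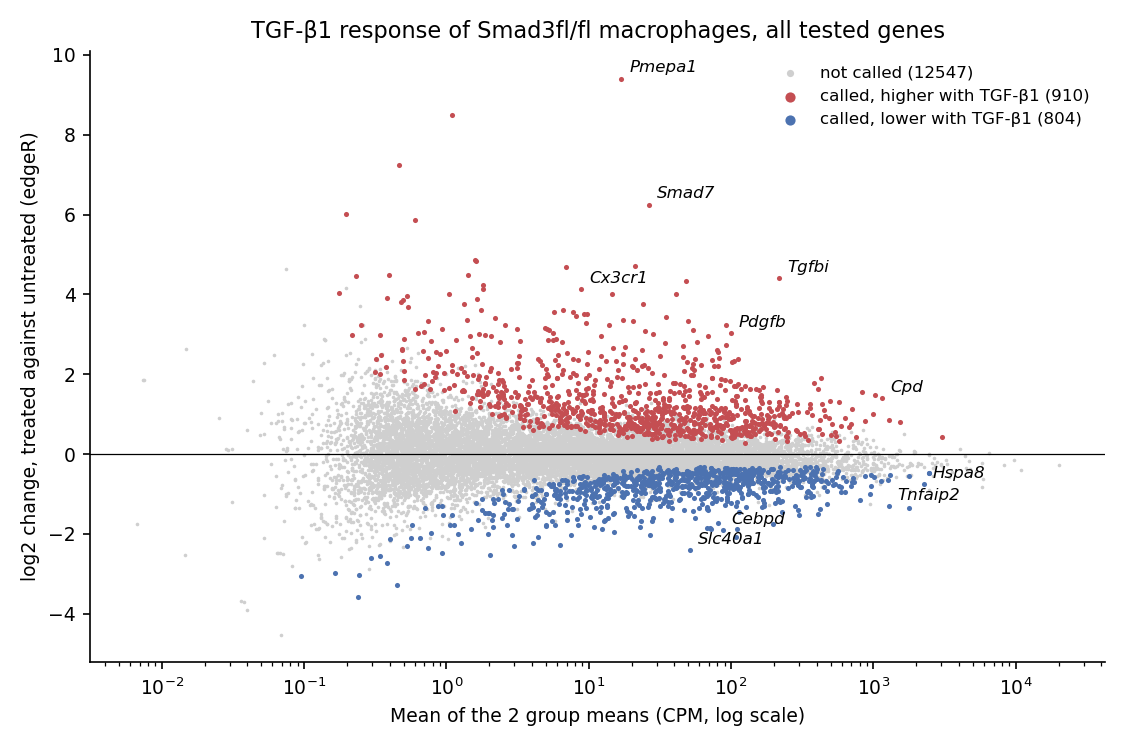
Log2 change with TGF-β1 (y axis) against the mean of the 2 group means in CPM (x axis, log scale) for the 14261 tested genes, with raised genes in red, lowered genes in blue, genes that were not called in grey and 10 genes named. The 910 raised genes reach larger changes than the 804 lowered genes, with Pmepa1 at the top (9.41).

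Among the gene lists, that of the pathway's own inhibitors had the largest share of called members (57.9%, against 12% of all tested genes). Of 19 tested genes that encode inhibitors of TGF-β signalling, 10 rose and 1 fell, with a median log2 change of 0.76 against -0.03 over all tested genes. Pmepa1 (ENSMUSG00000038400, chr2:173224458-173276533, GRCm38), whose product binds receptor-activated SMADs and blocks their activation, was all but absent without TGF-β1, at 0.0399, 0.045 and 0.047 CPM (1 read per library), and reached 44.5, 27.0 and 29.9 CPM. Its 3 reads in the untreated group against 2130 in the treated group give a ratio of 776.5 (95% exact interval 265.3 to 3768, counting error only; adjusted p = 3.24e-11). Smad7, the inhibitory SMAD that brings ubiquitin ligases to the type I receptor, was at 0.798, 0.721 and 0.517 CPM untreated and 51.0, 48.4 and 57.5 treated, a log2 change of 6.25 ± 0.24 (SE; adjusted p = 4.91e-14). Smad6 (ENSMUSG00000036867, chr9:63953076-64022059), the inhibitory SMAD best known for opposing BMP signals, was at 0.559, 0.586 and 0.376 CPM untreated and 11.8, 11.8 and 16.4 treated (4.69 ± 0.29, adjusted p = 1.7e-10). For these 3 genes every treated library lay far above every untreated one. Ldlrad4, which holds SMAD2 and SMAD3 away from the receptor complex, rose by 2.52 ± 0.40 from a low level (mean 0.488 to 2.82 CPM, adjusted p = 0.00011). Spsb1, an adaptor that sends the type II receptor for degradation, was at 4.63, 3.20 and 1.41 CPM untreated and 45.3, 24.3 and 25.6 treated (3.35 ± 0.38, adjusted p = 1.65e-06).

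The transcriptional repressors of SMAD complexes were expressed at higher basal levels and rose less. Ski was at 85.9, 71.1 and 81.2 CPM untreated and 247, 254 and 269 treated (1.69 ± 0.12, adjusted p = 7.05e-10). Its relative Skil went from 281, 385 and 193 to 566, 640.4 and 640.5 CPM (1.10 ± 0.23, adjusted p = 0.00173). Ski was even across libraries of a group, while Skil was lowest in untreated library 3, and neither gene's groups overlapped. The ubiquitin ligases Smurf1 (0.91 ± 0.13, adjusted p = 2.07e-05) and Smurf2 (0.86 ± 0.12, adjusted p = 2.46e-05) both rose. Tgif1, a homeodomain repressor, rose by 0.76 ± 0.16 (adjusted p = 0.00225), and its call was lost without the number 3 pair (adjusted p = 0.0547). The exception among the inhibitors was Wwp1, another ubiquitin ligase of the receptor, which fell by 0.78 ± 0.21 from a mean of 656 to 382 CPM (adjusted p = 0.016), a call lost without treated library 1, or the number 1, 2 or 3 pair (adjusted p from 0.05 to 0.129).

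SMAD complexes bind short DNA elements, and 4 promoters were read out to show where such elements lie in genes of this response. They come from RefSeq sequence of GRCm38.p6, from 250 bases before to 50 after the start, on the strand of the gene, and capitals mark the match. Distances are given from the first base of a match. The SMAD palindrome GTCTAGAC begins 4 bases before the start of Smad6 (chr9:64022010-64022309, minus strand) and runs across it. The palindrome begins 159 bases before the start of Armc9 (chr1:86154530-86154829, plus strand), a gene of the primary cilium. The CAGA box AGCCAGACA stands 76 bases before the start of Ppfibp2 (chr7:107665228-107665527, plus strand), a gene for a liprin scaffold protein. The GC-rich element GGCGCC stands 77 bases before the start of Tgfbi (chr13:56609336-56609635, plus strand), which is described below.
Smad6: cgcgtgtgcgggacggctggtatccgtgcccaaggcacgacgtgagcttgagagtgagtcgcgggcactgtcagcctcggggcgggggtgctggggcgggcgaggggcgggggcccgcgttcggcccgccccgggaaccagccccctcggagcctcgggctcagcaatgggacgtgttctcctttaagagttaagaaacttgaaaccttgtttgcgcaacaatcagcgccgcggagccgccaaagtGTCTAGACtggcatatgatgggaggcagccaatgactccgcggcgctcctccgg
Armc9: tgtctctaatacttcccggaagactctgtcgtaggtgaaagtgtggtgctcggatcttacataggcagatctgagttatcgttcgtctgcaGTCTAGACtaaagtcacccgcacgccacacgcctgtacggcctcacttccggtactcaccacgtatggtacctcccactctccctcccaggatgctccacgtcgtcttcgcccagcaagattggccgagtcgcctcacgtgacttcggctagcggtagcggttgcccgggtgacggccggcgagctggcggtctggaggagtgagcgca
Ppfibp2: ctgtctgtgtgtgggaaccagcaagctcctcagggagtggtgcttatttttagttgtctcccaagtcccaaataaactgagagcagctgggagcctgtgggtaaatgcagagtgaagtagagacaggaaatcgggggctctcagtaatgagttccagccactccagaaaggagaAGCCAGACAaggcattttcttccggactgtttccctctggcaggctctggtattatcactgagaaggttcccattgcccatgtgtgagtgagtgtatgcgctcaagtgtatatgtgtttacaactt
Tgfbi: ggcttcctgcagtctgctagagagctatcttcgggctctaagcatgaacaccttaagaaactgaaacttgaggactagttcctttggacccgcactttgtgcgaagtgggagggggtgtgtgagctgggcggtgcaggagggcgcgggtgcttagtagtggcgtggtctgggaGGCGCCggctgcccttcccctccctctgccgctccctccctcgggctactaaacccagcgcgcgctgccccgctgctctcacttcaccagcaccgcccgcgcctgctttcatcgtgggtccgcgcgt
Armc9 rose by 2.08 ± 0.51 (adjusted p = 0.0071), and Ppfibp2 fell by 1.12 ± 0.17 (adjusted p = 7.45e-05). Both strands were searched in the promoters of 384 of the 523 genes that at least doubled, 178 of the 238 that at least halved and all 27025 genes of the table. The palindrome was in 0.521% of the doubled genes' promoters, which is 2 genes, Smad6 and Armc9, and in 0% of the halved genes' promoters. It was in 0.282% of those of the 9933 tested genes with an entry, and in 0.248% of all. In the same order, the CAGA box was in 0.26% (1 gene), 1.69% (3 genes), 0.332% and 0.433%. GGCGCC was in 28.1%, 22.5%, 22.8% and 13.4%, and the AP-1 element TGANTCA in 9.9%, 3.93%, 6.66% and 8.97%. A match in these windows describes the letters only, and no binding was measured.

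Receptors and ligands changed less uniformly. Among 12 tested receptors and coreceptors 3 rose and none fell. Tgfbr1 (ENSMUSG00000007613, chr4:47353222-47414931), the type I receptor, was at 42.8, 37.9 and 22.7 CPM untreated and 181, 165 and 178 treated (2.34 ± 0.29, adjusted p = 3.84e-06), with the lowest value in untreated library 3 and no overlap. The type II receptor Tgfbr2 was at 204, 214 and 306 and 236, 268 and 276 CPM and was not called (adjusted p = 0.673). Tmeff1, a membrane protein counted in this list though not itself a receptor kinase, rose from 0, 0.0901 and 0.235 to 3.72, 2.82 and 2.80 CPM (4.83 ± 0.58, adjusted p = 5.48e-06). Bmpr2, the BMP type II receptor, rose by 0.86 ± 0.27 (adjusted p = 0.0372), a call lost without untreated library 2 or 3, treated library 1, 2 or 3, or the number 1, 2 or 3 pair (adjusted p from 0.0709 to 0.292). Among 16 tested ligands, latency proteins and activators 1 rose and 3 fell. Furin, the protease that cleaves the TGF-β precursor, was the one that rose, from 51.5, 72.8 and 53.8 to 183, 228 and 167 CPM (1.70 ± 0.16, adjusted p = 8.31e-08). Nrros, which tethers latent TGF-β1 on macrophages and microglia, fell from 229, 309.6 and 408 to 101, 159 and 161 CPM (-1.17 ± 0.20, adjusted p = 0.000287), and Gdf15, a stress-induced ligand, fell by 1.21 ± 0.28 (adjusted p = 0.00502). Of the signal-carrying SMADs, Smad5 rose by 0.83 ± 0.14 (adjusted p = 0.000183), while Smad2 and Smad4 were not called (adjusted p = 0.415 and 0.341).

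**Figure D3:**
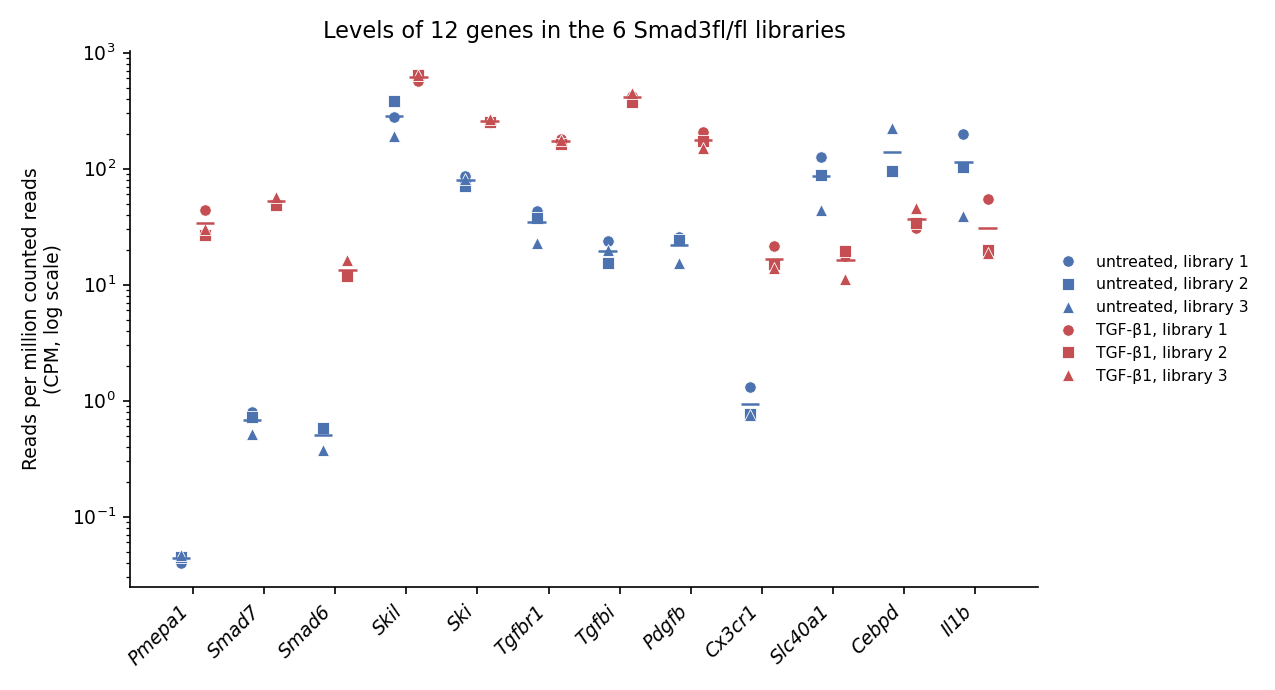
CPM (y axis, log scale) of 12 genes (x axis) in each of the 6 Smad3fl/fl libraries, untreated in blue and treated in red, with circles, squares and triangles for libraries 1, 2 and 3 and short lines for the group means. Smad7 lies at 48.4 to 57.5 CPM treated against 0.517 to 0.798 untreated, Slc40a1 and Cebpd lie lower in every treated library, and for Il1b untreated library 3 overlaps the treated ones.

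Widely known SMAD2 and SMAD3 targets split into a few strong responders and many genes without a called change: 5 of 20 tested rose and 1 fell (median 0.10). Tgfbi (ENSMUSG00000035493, chr13:56609523-56639562), which encodes a secreted matrix protein, was at 23.8, 15.4 and 19.9 CPM untreated and 424, 379 and 448 treated (4.40 ± 0.25, adjusted p = 5.52e-11). Per length it reached 294 ± 24.6 FPKM (mean and SD of 3 treated libraries), against 35.7 ± 2.41 for Smad7 and 19.3 ± 6.17 for Pmepa1. Klf10, an early TGF-β response factor, rose by 1.15 ± 0.23 (adjusted p = 0.00132), and Tgm2, a transglutaminase, by 1.16 ± 0.22 (adjusted p = 0.000865). The cell cycle inhibitor Cdkn2b, a TGF-β target that is raised in epithelial cells, was lowered here, from 29.6, 16.6 and 15.8 to 8.07, 6.69 and 5.48 CPM (-1.61 ± 0.24, adjusted p = 3.81e-05).

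Of 18 tested plasminogen and coagulation genes 5 rose and none fell (27.8% called, against 12% of all tested genes, median 0.11). The rises were 3 to 4 in the leave-out fits, fewest without untreated library 3 or any numbered pair. Plau, the urokinase that activates plasminogen, was at 6.94, 6.53 and 8.13 CPM untreated and 37.7, 32.2 and 29.0 treated (2.20 ± 0.24, adjusted p = 1.03e-06), and all treated libraries exceeded all untreated ones. Its receptor Plaur rose by 1.07 ± 0.30 (adjusted p = 0.0197), a call lost without untreated library 3, treated library 1, or the number 1, 2 or 3 pair (adjusted p from 0.0632 to 0.129). F2r, the thrombin receptor PAR1, was at 0, 0.586 and 0 CPM untreated and 3.44, 5.54 and 1.29 treated (4.12 ± 0.78, adjusted p = 0.000763), a low level held by few reads in the untreated group.

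Among 19 tested secreted growth factors 5 rose and none fell (median -0.09), and the rises were 3 without the number 3 pair. Both chains of platelet-derived growth factor were among them. Pdgfb was at 25.7, 24.1 and 15.5 CPM untreated and 207, 172 and 151 treated (3.02 ± 0.31, adjusted p = 3.54e-07). Pdgfa went from 1.88, 6.53 and 2.82 to 39.8, 35.8 and 36.8 CPM (3.33 ± 0.32, adjusted p = 1.44e-07). Neither gene's groups came near to overlapping. Angptl2, a secreted angiopoietin-like protein, rose from 1.36, 1.94 and 1.83 to 29.9, 29.8 and 23.1 CPM (4.01 ± 0.29, adjusted p = 1.47e-09). Vegfa rose by 0.80 ± 0.20 (adjusted p = 0.00769), and its call was lost without the number 3 pair (adjusted p = 0.0583). Of 17 tested structural matrix genes 3 rose and 1 fell (23.5% called, against 12% of all tested genes). The rises were 1 to 3 in the leave-out fits, fewest without the number 1 pair, and the falls 0 to 2. Fn1, which encodes fibronectin, rose from a mean of 1.00 to 3.69 CPM (1.87 ± 0.38, adjusted p = 0.00132). Tnc, tenascin C, had 3 reads in the untreated and 24 in the treated group, a ratio of 8.75 (95% exact interval 2.66 to 45.4, counting error only; adjusted p = 0.0351), a call lost without untreated library 1 or 3, treated library 2 or 3, or the number 1, 2 or 3 pair (adjusted p from 0.0771 to 0.304). The matrix list shares its low level with the stromal markers given above, and their part in it was not tested. The proteoglycan gene Vcan fell by 0.90 ± 0.27 (adjusted p = 0.0308), a call lost without untreated library 1 or 2, treated library 1 or 2, or the number 1 or 2 pair (adjusted p from 0.0731 to 0.232). Of 19 tested matrix proteases and inhibitors 3 rose and 1 fell, the latter being the aggrecanase Adamts4, which went from 538, 512 and 294 to 191, 159 and 115 CPM (-1.53 ± 0.28, adjusted p = 0.000449).

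Other genes stood among the 12 largest rises. Pald1, which encodes a protein with phosphatase-like domains, went from 2.51, 1.08 and 0.986 to 58.5, 28.2 and 34.9 CPM (4.71 ± 0.48, adjusted p = 3.52e-07). Spata13, an exchange factor that activates Rac1 and Cdc42, went from 7.22, 3.33 and 3.01 to 99.1, 79.4 and 96.1 CPM (4.33 ± 0.27, adjusted p = 1.7e-10). Creb3l2, a transcription factor held in the endoplasmic reticulum, rose by 3.77 ± 0.27 to a mean of 44.6 CPM, and Fbxo40, an F-box protein, by 3.55 ± 0.40 to 10.6 CPM. All 12 kept their call in every alternative fit.

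Genes of the microglial program that depend on TGF-β in the brain also responded in these marrow macrophages: 5 of 11 tested rose and none fell, with a median log2 change of 0.89, and 4 or 5 rose and 0 to 2 fell in the leave-out fits. Cx3cr1, the fractalkine receptor, was at 1.32, 0.766 and 0.752 CPM untreated and 21.4, 15.0 and 13.8 treated (4.13 ± 0.45, adjusted p = 7.31e-07). Olfml3, a secreted olfactomedin-like protein, went from 1.44, 0.676 and 0.892 to 15.1, 9.33 and 12.5 CPM (3.60 ± 0.35, adjusted p = 1.92e-07). The groups of both genes lay about an order of magnitude apart. Gpr84, a receptor for medium-chain fatty acids, rose by 1.83 ± 0.21 (adjusted p = 1.75e-06). P2ry12, the purine receptor of resting microglia, reached only 3.85, 6.20 and 6.77 CPM from 2.67, 3.29 and 3.10 (0.89 ± 0.28, adjusted p = 0.0403), and its call was lost without untreated library 1, 2 or 3, treated library 2 or 3, or the number 1, 2 or 3 pair (adjusted p from 0.0678 to 0.278). With the replicate block 6 rose and 3 fell.

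Transcription factors that define the myeloid lineage were rearranged. Of 27 tested C/EBP, KLF and other lineage factors 7 rose and 8 fell, the falls being 5 to 7 in the leave-out fits, fewest without any numbered pair. The C/EBP family of myeloid regulators split. Cebpa was at 17.3, 8.20 and 17.8 CPM untreated and 104, 90.8 and 106 treated (2.80 ± 0.29, adjusted p = 4.64e-07). Cebpd (ENSMUSG00000071637, chr16:15887286-15891031) was at 96.4, 95.4 and 226 CPM untreated and 30.5, 34.2 and 46.1 treated (-1.91 ± 0.30, adjusted p = 8.03e-05), with untreated library 3 the highest. So every treated library exceeded the untreated ones for Cebpa and lay under them for Cebpd. Cebpb rose by 0.91 ± 0.29 (adjusted p = 0.0423), a call lost without untreated library 1 or 2, treated library 1, 2 or 3, or the number 1, 2 or 3 pair (adjusted p from 0.0594 to 0.183). Maf, a bZIP factor of macrophages, fell (-0.68 ± 0.14, adjusted p = 0.00152). Klf6 fell from 956, 1255 and 1147 to 471, 536 and 499.6 CPM (-1.16 ± 0.22, adjusted p = 0.000764), whereas Klf10 and Klf13 rose, the latter by 0.67 ± 0.11 (adjusted p = 0.00013). Runx1 (0.86 ± 0.14) and Runx2 (1.58 ± 0.34) both rose (adjusted p = 0.000194 and 0.00239). Bach2, a repressor known from lymphocytes, rose from 0, 0.36 and 0.188 to 2.58, 2.99 and 1.85 CPM (3.75 ± 0.86, adjusted p = 0.0042). Spic, the factor of red pulp macrophages of the spleen, went from 27.3, 21.7 and 9.54 to 6.25, 5.85 and 3.86 CPM (-1.87 ± 0.35, adjusted p = 0.000724), and the AP-1 partners Batf and Batf3 fell by 1.26 ± 0.27 and 1.32 ± 0.26 (adjusted p = 0.00245 and 0.00124). Id2, an inhibitor of helix-loop-helix factors, rose from 126, 162 and 79.9 to 244, 278 and 258 CPM (1.08 ± 0.23, adjusted p = 0.00237), and Id3 changed by 0.89 ± 0.32, a rise only with the replicate block (adjusted p = 0.0763 without and 0.00496 with it).

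Inflammatory mediators fell more than they rose. Of 15 tested inflammatory cytokines and mediators 4 fell and 1 rose, with a median of -0.81. The falls were 0 to 5 in the leave-out fits, with 0 without the number 2 pair. Il1b, which encodes interleukin-1β, was at 198, 103 and 39.5 CPM untreated and 54.5, 19.9 and 18.9 treated (-1.87 ± 0.49, adjusted p = 0.0126). Untreated library 3 overlapped the treated group, and the call was lost without untreated library 1, treated library 2 or 3, or the number 2 pair (adjusted p from 0.0658 to 0.1). Tnfsf15, a TNF-family ligand, fell by 1.51 ± 0.39 (adjusted p = 0.012), a call lost without untreated library 3, treated library 1 or 2, or the number 2 pair (adjusted p from 0.0506 to 0.11). Il27 fell by 1.35 ± 0.39 (adjusted p = 0.0246), a call lost without untreated library 2 or 3, treated library 1 or 2, or the number 2 or 3 pair (adjusted p from 0.064 to 0.16). Osm, which encodes oncostatin M, moved the other way, from 3.35, 2.97 and 2.25 to 18.2, 16.2 and 15.9 CPM (2.55 ± 0.30, adjusted p = 1.99e-06), with the treated libraries well above the untreated ones. Tnf was at 156, 262 and 229 and 140.1, 192 and 199 CPM (-0.28 ± 0.34, adjusted p = 0.658). With the replicate block 8 fell, among them Il10 (-1.17 ± 0.21, adjusted p = 0.000537) and Nos2 (-1.03 ± 0.16, adjusted p = 0.000189).

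Of 20 tested chemokines 3 fell and 2 rose (median -0.59), and the falls were 0 to 6 in the leave-out fits, with 0 without the number 2 pair. The neutrophil attractants fell: Cxcl1 was at 455, 338 and 123 CPM untreated and 126, 94.4 and 52.5 treated (-1.74 ± 0.43, adjusted p = 0.00792), and Cxcl2 at 413, 410.4 and 171 and 162, 109.8 and 94.1 (-1.44 ± 0.35, adjusted p = 0.00718). Library 3 had the lowest value of its group for both genes, and untreated library 3 overlapped the treated libraries for Cxcl1. Their calls were lost for Cxcl1 without the number 2 pair (adjusted p = 0.0631) and for Cxcl2 without the number 2 pair (adjusted p = 0.102). Ccl3 fell from 401, 538 and 880.0 to 172, 184 and 347 CPM (-1.37 ± 0.40, adjusted p = 0.0258), a call lost without untreated library 3, treated library 1 or 2, or the number 1, 2 or 3 pair (adjusted p from 0.0618 to 0.165). Cxcl16, a membrane-bound chemokine that also binds oxidised lipoprotein, rose from 267, 316 and 323 to 514, 558 and 566 CPM (0.85 ± 0.16, adjusted p = 0.00065), and Cxcl14 rose at a low level (1.97 ± 0.38, adjusted p = 0.000783). With the block 9 chemokines fell, among them Ccl4 (-1.28 ± 0.13, adjusted p = 2.62e-06).

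The list with the most falls was that of Toll-like receptors and NF-κB regulators, with 12 of 30 tested genes lower and 2 higher (median -0.55). The falls were 5 to 13 in the leave-out fits, fewest without treated library 1 or any numbered pair, and 1 or 2 genes rose in them. Nfkbiz, which encodes the atypical inhibitor IκBζ that activates secondary response genes, was at 791, 856 and 858 CPM untreated and 407, 469 and 426 treated (-0.94 ± 0.11, adjusted p = 3.02e-06). Irak2, a kinase downstream of Toll-like receptors, went from 399.9, 506 and 581 to 198, 239 and 269 CPM (-1.07 ± 0.19, adjusted p = 0.000445). Irak3, which restrains the same pathway, fell too (-0.93 ± 0.12, adjusted p = 5.79e-06). The groups of these 3 genes did not overlap, and they kept their calls in every alternative fit. Tlr2, the receptor for bacterial lipoproteins, rose from 157, 254 and 258 to 428, 537 and 510.2 CPM (1.14 ± 0.17, adjusted p = 3.96e-05), while its partners Tlr1 (-0.57 ± 0.13) and Tlr6 (-0.52 ± 0.14) fell (adjusted p = 0.0051 and 0.0134). These calls were lost for Tlr1 without treated library 1 (adjusted p = 0.0574) and for Tlr6 without treated library 1, or the number 2 or 3 pair (adjusted p from 0.0506 to 0.103). Tnfaip2, a gene induced by TNF, had one of the 8 largest falls in CPM, from 1709.8, 1945 and 1845 to 703, 802 and 719 (-1.31 ± 0.25, adjusted p = 0.000767). In the TNF superfamily 7 of 24 tested fell and 1 rose (median -0.63), with 5 to 8 falls and 0 to 3 rises in the leave-out fits. They included Tnfrsf14, the receptor HVEM (-0.69 ± 0.13, adjusted p = 0.00101), and the decoy receptor Tnfrsf22 (-1.38 ± 0.27, adjusted p = 0.000984).

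Several programs changed broadly only when library number was a block. With the block 12.2% of all tested genes fell and 11% rose, against 5.64% and 6.38% without it. List counts with the block, here and elsewhere, are to be read against those shares. Of 38 tested interferon-induced genes 2 fell without the block and 20 with it (median -0.37), and 0 to 10 in the leave-out fits, with 0 without untreated library 3, treated library 1 or 2, or the number 2 or 3 pair. Stat2, a carrier of the interferon signal, was at 791, 1168 and 1695 CPM untreated and 519.8, 704 and 888 treated (-0.79 ± 0.23, adjusted p = 0.0283), a call lost without untreated library 3, treated library 1 or 2, or the number 2 or 3 pair (adjusted p from 0.0737 to 0.234). The libraries were ordered alike in both groups, 1 lowest and 3 highest, and untreated 1 overlapped the treated range. Mx1, an antiviral GTPase, was at 1610.3, 3797 and 4279.9 and 1050.3, 1743 and 2391 CPM (-0.90 ± 0.42, adjusted p = 0.182; with the block -0.86 ± 0.10, adjusted p = 7.32e-06). Of 27 tested genes of sterol and fatty acid synthesis 2 fell, and 15 with the block (median -0.50). They were 0 to 13 in the leave-out fits, with 0 without untreated library 3, treated library 1 or 2, or the number 2 pair. Among the 15 was Sqle, squalene epoxidase, at 73.6, 101 and 178 CPM untreated and 50.4, 71.8 and 97.2 treated (-0.68 ± 0.23, adjusted p = 0.0595, with the block 5.9e-05). Of 24 tested genes of the unfolded protein and integrated stress responses 4 fell, and 13 with the block (median -0.37), with 1 to 8 in the leave-out fits, fewest without untreated library 3, treated library 1, or the number 1 or 3 pair. Herpud1, a component of the degradation machinery of the endoplasmic reticulum, fell in both fits, from 135, 127 and 185 to 73.9, 87.5 and 89.1 CPM (-0.83 ± 0.16, adjusted p = 0.000867). Of 21 tested genes of antigen presentation 1 fell, and 7 with the block, and 0 to 2 in the leave-out fits.

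**Figure D4:**
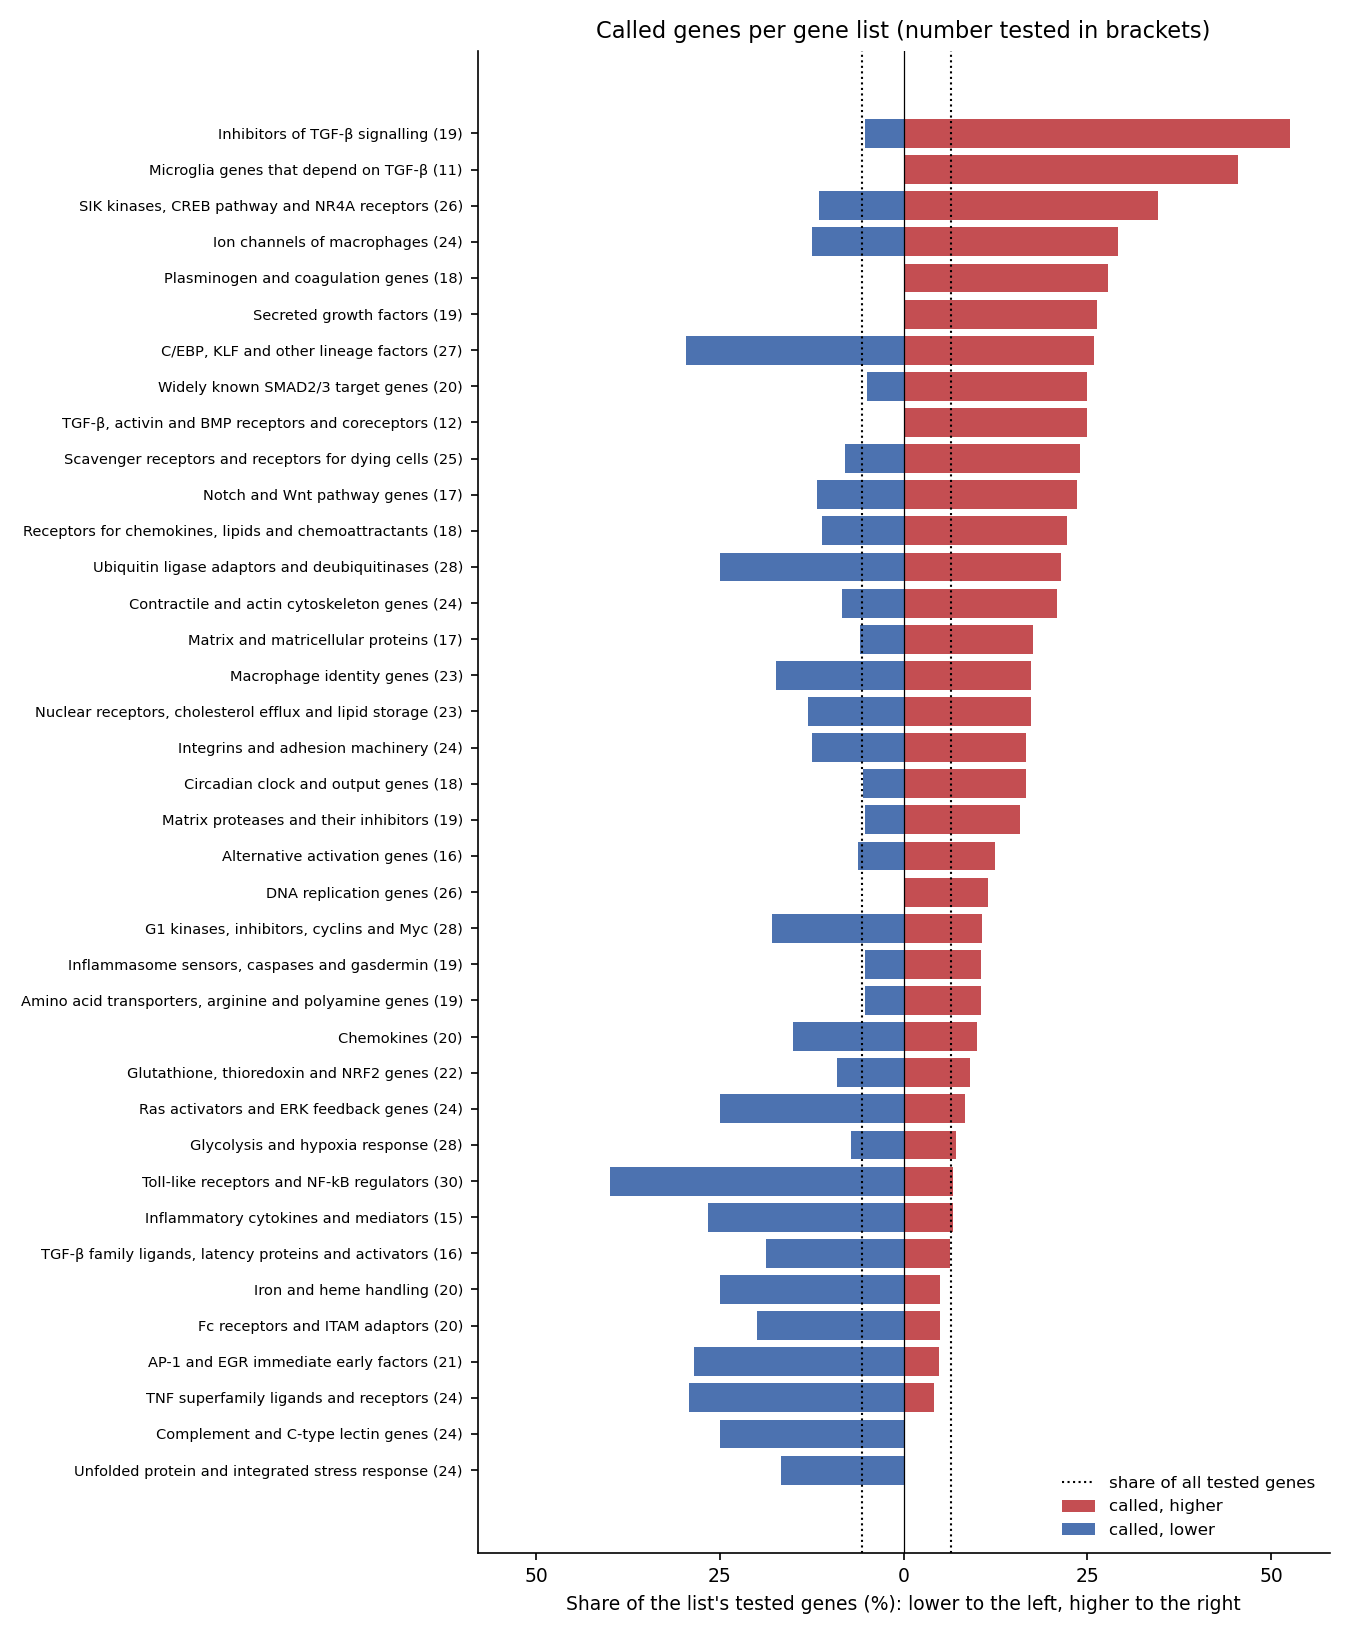
Share of the tested members of each gene list (y axis, number tested in brackets) that rose (red, to the right of 0) or fell (blue, to the left), in percent (x axis), for all but 1 of the lists with at least 3 called members, with dotted lines at the shares of all tested genes. Inhibitors of TGF-β signalling reach farthest to the right (10 of 19 higher, 1 lower) and Toll-like receptors and NF-κB regulators farthest to the left (12 of 30 lower, 2 higher).

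Receptors that guide macrophage movement changed in both directions, with 4 of 18 tested higher and 2 lower. Cxcr4, the receptor for CXCL12, was at 19.99, 23.7 and 21.8 CPM untreated and 95.4, 102 and 109 treated (2.22 ± 0.17, adjusted p = 4.51e-09). The sphingosine 1-phosphate receptors S1pr1 and S1pr4 rose by 1.71 ± 0.21 and 1.95 ± 0.32 (adjusted p = 3.15e-06 and 0.000163). Fpr1, a receptor for bacterial formyl peptides, fell from 89.6, 95.9 and 134 to 41.0, 47.6 and 57.5 CPM (-1.13 ± 0.18, adjusted p = 9.5e-05), and Fpr2 by 0.66 ± 0.13 (adjusted p = 0.000845). No library of one group reached the other for Cxcr4 or Fpr1. Lpar6, a receptor for lysophosphatidic acid, rose by 1.61 ± 0.35 (adjusted p = 0.00313), a call lost without the number 3 pair (adjusted p = 0.0758).

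Of 24 tested integrin and adhesion genes 4 rose and 3 fell, the falls being 1 to 4 in the leave-out fits and 1 without untreated library 3, treated library 2 or 3, or any numbered pair. Itgav and Itgb5, whose products pair as the αvβ5 receptor for vitronectin, both rose. Itgb5 was at 36.6, 35.3 and 45.5 CPM untreated and 153, 119 and 151 treated (1.85 ± 0.24, adjusted p = 9.4e-06), and Itgav went from 165, 152 and 109 to 399, 335 and 335 (1.33 ± 0.19, adjusted p = 3e-05). The laminin receptor chain Itga6 and the fibronectin receptor chain Itga5 rose by 1.02 ± 0.14 and 0.91 ± 0.21 (adjusted p = 1.74e-05 and 0.00536). Vcl, which encodes the focal adhesion protein vinculin, fell from 118, 95.3 and 114 to 55.1, 45.4 and 52.1 CPM (-1.10 ± 0.13, adjusted p = 1.65e-06). Among 24 tested contractile and cytoskeletal genes 5 rose and 2 fell, the falls being 1 to 5 in the leave-out fits, fewest without treated library 1 or 2. Actn1, an actin crosslinker, rose by 1.76 ± 0.34 (adjusted p = 0.000845), Pdlim7, an adaptor of actin fibres, by 3.45 ± 0.36 (adjusted p = 5.48e-07), and the tubulin gene Tubb6 by 1.43 ± 0.23 (adjusted p = 0.00013), whereas the tubulin gene Tubb2a fell by 0.97 ± 0.18 (adjusted p = 0.000703). Myh9, the heavy chain of nonmuscle myosin, was among the 8 largest rises in CPM, from 1096, 1059 and 1209 to 1938, 1883 and 2036 (0.80 ± 0.11, adjusted p = 1.86e-05). Plec, which encodes the linker plectin, went from 635, 539.5 and 456 to 1589, 1461 and 1511 CPM (1.48 ± 0.15, adjusted p = 2.81e-07), and Tns3, an adaptor of focal adhesions, from 707, 708 and 586 to 1457, 1296 and 1238 (0.997 ± 0.15, adjusted p = 6.3e-05). Every treated library exceeded every untreated one for these 3 genes, as the rule that names genes by their change of CPM requires.

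Rnd3, a small GTPase that stays in its active form, was among the 12 largest falls, from 44.2, 51.2 and 35.2 to 9.52, 12.98 and 9.46 CPM (-2.03 ± 0.20, adjusted p = 1.65e-07). Fgd2, a Cdc42 exchange factor of leukocytes, fell from 95.9, 103 and 175 to 28.6, 35.9 and 47.8 CPM (-1.74 ± 0.22, adjusted p = 4.83e-06), and the exchange factor Vav3 by 1.13 ± 0.24 (adjusted p = 0.0025). Rhoq, a GTPase related to Cdc42, rose by 1.39 ± 0.16 (adjusted p = 2.12e-06). Ras activators and feedback genes of the ERK pathway leaned downwards, with 6 of 24 tested lower and 2 higher (median -0.54). The falls were 3 to 9 in the leave-out fits, fewest without the number 3 pair, and 12 with the block, and the rises 1 without the number 2 pair. Sos1, a Ras exchange factor, fell from 36.0, 53.1 and 65.1 to 18.9, 20.8 and 22.7 CPM (-1.31 ± 0.28, adjusted p = 0.00219), and the ERK phosphatase Dusp6 by 1.11 ± 0.19 (adjusted p = 0.000241), while Dusp7, a related phosphatase, rose by 1.24 ± 0.22 (adjusted p = 0.000438). Among 21 tested AP-1 and EGR immediate early factors 6 fell and 1 rose (median -0.53), with 2 to 7 falls in the leave-out fits, fewest without treated library 1, and 1 to 3 rises. Fos was the gene that rose, from 242, 148 and 130.4 to 665, 558 and 569.5 CPM (1.78 ± 0.20, adjusted p = 1.26e-06), and all treated libraries lay above all untreated ones. Its partners Jun and Jund went the other way (-0.69 ± 0.20 and -0.81 ± 0.23, adjusted p = 0.0238 and 0.0206). The Jun call was lost without untreated library 3, treated library 1, 2 or 3, or the number 2 or 3 pair (adjusted p from 0.0625 to 0.319) and the Jund call without untreated library 3, treated library 1 or 2, or the number 1, 2 or 3 pair (adjusted p from 0.0572 to 0.121).

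Genes of cAMP signalling and of its target pathway had 9 of 26 tested members higher and 3 lower (median 0.33). In the leave-out fits 5 to 9 were higher, fewest without the number 2 pair, and 1 to 3 lower. Rgs2, which shortens signals of G proteins, was at 10.6, 12.3 and 20.1 CPM untreated and 57.7, 73.0 and 102 treated (2.44 ± 0.23, adjusted p = 1.11e-07). Adcy7, the adenylyl cyclase of blood cells, went from 83.0, 63.2 and 73.9 to 234, 202 and 248 CPM (1.64 ± 0.20, adjusted p = 3.27e-06), and Prkar1b, a regulatory subunit of protein kinase A, from 0.399, 0.766 and 2.16 to 9.11, 10.6 and 8.45 (3.10 ± 0.43, adjusted p = 1.82e-05). For these 3 genes the treated and untreated ranges were far apart. Sik1, a kinase that inactivates CREB coactivators, fell from 2.47, 2.12 and 5.82 to 0.453, 0.704 and 0.615 CPM (-2.54 ± 0.36, adjusted p = 2.36e-05). Of 24 tested ion channels 7 rose and 3 fell, the falls being 1 to 4 in the leave-out fits, fewest without untreated library 3, treated library 2, or the number 3 pair. The potassium channel genes Kcna3 (2.69 ± 0.34), Kcnn4 (1.70 ± 0.20) and Kcnk13 (1.60 ± 0.20) all rose (adjusted p = 4.89e-06, 3.15e-06 and 4.49e-06). Piezo1, the mechanically gated channel, rose from 207, 202 and 259 to 461, 455 and 462 CPM (1.05 ± 0.14, adjusted p = 1.06e-05).

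Lipid genes showed a change in nuclear receptors and exporters rather than a common direction, with 4 of 23 tested higher and 3 lower. Abca1, the exporter of cholesterol to apolipoprotein A1, was at 534, 439 and 292 CPM untreated and 1382, 1199.6 and 1121 treated (1.55 ± 0.21, adjusted p = 1.28e-05). Abcg1, which exports cholesterol to HDL particles, rose by 1.22 ± 0.17 (adjusted p = 2.05e-05). Pparg fell from 21.0, 17.7 and 19.96 to 6.66, 5.32 and 6.49 CPM (-1.67 ± 0.19, adjusted p = 1.33e-06), while the related receptor gene Ppard rose from 16.0, 17.6 and 12.8 to 46.4, 41.9 and 44.8 (1.52 ± 0.15, adjusted p = 2.4e-07). The shared partner Rxra rose by 1.17 ± 0.17 (adjusted p = 3.54e-05). For Pparg and Ppard the 2 groups did not overlap, and all 5 genes kept their calls in every alternative fit.

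Iron genes leaned downwards, with 5 of 20 tested lower and 1 higher (median -0.32). In the leave-out fits 3 to 6 were lower, fewest without the number 3 pair, and 0 to 2 higher. Slc40a1 (ENSMUSG00000025993, chr1:45908068-45926523), which encodes ferroportin, the iron exporter through which macrophages return iron to the blood, had the largest fall of all genes named by size. It was at 127, 88.6 and 44.2 CPM untreated and 17.8, 19.6 and 11.2 treated (-2.41 ± 0.29, adjusted p = 3.27e-06), and even untreated library 3, the lowest of its group, lay above the treated libraries. Slc11a2, the importer DMT1, fell by 0.67 ± 0.14 (adjusted p = 0.00259), and Ncoa4, which takes ferritin to lysosomes, by 0.65 ± 0.16 (adjusted p = 0.00666), a call lost without treated library 1, or the number 3 pair (adjusted p from 0.0558 to 0.0773). Of genes for glutathione and thioredoxin, Gclm, the modifier subunit of the rate-limiting enzyme of glutathione synthesis, rose from 94.5, 60.7 and 43.3 to 262, 189.9 and 161 CPM (1.63 ± 0.21, adjusted p = 8.42e-06), and G6pdx, the first enzyme of the pentose phosphate pathway, fell by 0.80 ± 0.15 (adjusted p = 0.000508). Ndrg1, a gene known for its response to low oxygen, fell by 1.33 ± 0.22 (adjusted p = 0.000176), and 4 of 28 tested genes of glycolysis and hypoxia were called, 2 in each direction (14.3%, near the 12% of all tested genes). None of that list was higher without treated library 3 or the number 3 pair, and 1 was lower without treated library 1 or the number 1 pair.

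Surface receptors for debris and pathogens split by family. Of 25 tested scavenger receptors and receptors for dying cells 6 rose and 2 fell, the falls being 0 to 5 in the leave-out fits, with 0 without treated library 1 or 2, or the number 2 pair. Olr1, the receptor LOX-1 for oxidised lipoprotein, went from 0.479, 0.541 and 0.47 to 5.89, 4.27 and 3.86 CPM (3.22 ± 0.55, adjusted p = 0.000243), and Stab1, which encodes stabilin-1, from 545, 646 and 702 to 1054, 1165 and 1134 (0.83 ± 0.15, adjusted p = 0.000574). Lrp1, a large endocytic receptor and one of the most abundant transcripts that rose, was at 2669.6, 2448 and 2652 CPM untreated and 3508, 3461 and 3452 treated (0.42 ± 0.11, adjusted p = 0.0123), a call lost without untreated library 2, or the number 1 or 2 pair (adjusted p from 0.0532 to 0.128). Of 24 tested complement and C-type lectin genes 6 fell and none rose (median -0.27). They included Clec4a1, Clec4a2 and Clec4a3 (-0.81 ± 0.12, -0.78 ± 0.13 and -0.71 ± 0.13, adjusted p = 6.2e-05, 0.000139 and 0.000392), related genes among which reads may be shared. Clec4n, which encodes the fungal receptor Dectin-2, fell by 0.997 ± 0.20 (adjusted p = 0.00102). Among 20 tested Fc receptors and their adaptors 4 fell and 1 rose, and 11 fell with the block. In the leave-out fits 1 to 7 fell, fewest without treated library 1 or the number 2 pair, and 0 or 1 rose. Pirb, an inhibitory receptor, fell from 552, 599 and 833 to 243, 272 and 317 CPM (-1.25 ± 0.17, adjusted p = 1.62e-05).

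Of 28 tested G1 regulators of the cell cycle 3 rose and 5 fell. The falls were 2 to 8 in the leave-out fits, fewest without treated library 2 or the number 3 pair, and the rises 2 without the number 3 pair. E2f2, an activator of S phase genes, rose from 0.239, 0.18 and 0.188 to 2.27, 2.55 and 4.48 CPM (3.88 ± 0.37, adjusted p = 1.14e-07), and Rbl2, the repressor p130, fell from 88.3, 127.8 and 105 to 37.8, 54.6 and 51.8 (-1.15 ± 0.15, adjusted p = 8.59e-06). No treated library reached the untreated range for either. Of 26 tested DNA replication genes 3 rose and none fell (median 0.38), 11.5% called against 12% of all tested genes. In the leave-out fits 2 to 5 rose, fewest without untreated library 2 or the number 1 or 2 pair, and 7 rose in the block fit. Mcm6, a subunit of the replicative helicase, was at 15.6, 13.8 and 24.0 CPM untreated and 41.6, 41.7 and 45.9 treated (1.28 ± 0.15, adjusted p = 3.15e-06), and the licensing factor Cdt1 rose by 0.85 ± 0.17 (adjusted p = 0.00147). None of 24 tested mitosis genes was called, and 1 was with the block: Mki67, a marker of cycling cells, was at 3.79, 11.3 and 2.91 and 9.92, 13.8 and 11.9 CPM (adjusted p = 0.127, with the block 0.00626). Pim1, a kinase that promotes survival, was among the 12 largest falls, from 127, 187 and 208 to 41.5, 48.3 and 52.0 CPM (-1.88 ± 0.34, adjusted p = 0.00039).

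Notch and Wnt genes had 4 of 17 tested members higher and 2 lower, with 1 lower without untreated library 3, or the number 2 or 3 pair. The Notch ligand gene Jag1 rose by 1.67 ± 0.30 and Lfng, which modifies Notch receptors, by 2.30 ± 0.28 (adjusted p = 0.000451 and 3.27e-06). The Wnt receptor gene Fzd1 fell from 7.30, 9.504 and 3.24 to 1.86, 1.28 and 1.12 CPM (-2.23 ± 0.48, adjusted p = 0.00267), with its call lost without the number 2 pair (adjusted p = 0.0711), while Znrf3, a ligase that removes such receptors, rose from 2.63, 1.76 and 1.27 to 11.2, 9.63 and 8.504 (2.36 ± 0.41, adjusted p = 0.00026). Of 28 tested ubiquitin adaptors and deubiquitinases 6 rose and 7 fell, the falls being 3 to 8 in the leave-out fits, fewest without the number 3 pair. Usp2, a deubiquitinase with circadian expression, went from 2.15, 1.44 and 0.846 to 18.2, 16.4 and 16.7 CPM (3.51 ± 0.34, adjusted p = 1.44e-07), Peli2, a ligase of the Toll-like receptor pathway, from 0.678, 0.766 and 0.47 to 5.48, 5.32 and 6.21 (3.13 ± 0.60, adjusted p = 0.000834), and Trim25, a ligase of the antiviral RIG-I pathway, from 1199, 1413 and 1157 to 569.9, 623 and 687 (-1.004 ± 0.15, adjusted p = 4.25e-05). Asb2, an adaptor for the degradation of filamins, fell by 2.30 ± 0.55 (adjusted p = 0.00574), a call lost without the number 1 or 3 pair (adjusted p from 0.0589 to 0.0713). The inflammasome sensor gene Naip2 rose by 1.43 ± 0.14 and the adaptor gene Pycard fell by 1.07 ± 0.18 (adjusted p = 1.44e-07 and 0.000238), with the caution that Naip genes are near-identical copies.

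The remaining genes named by size were varied. Pcdhac2, a protocadherin gene, fell by 2.29 ± 0.28, Apof, an apolipoprotein gene, by 2.07 ± 0.42, Kif3c, a kinesin gene, by 1.85 ± 0.20, Cnksr3, a scaffold gene, by 1.83 ± 0.28, Rtl5 by 1.82 ± 0.15 and Cobll1 by 1.80 ± 0.32. The largest rise in CPM was that of Cpd, which encodes carboxypeptidase D, from 704, 682 and 512 to 1762, 1665 and 1562 (1.39 ± 0.17, adjusted p = 4.81e-06). Xdh, xanthine dehydrogenase, went from 658, 1197 and 902 to 1394, 1895 and 1682 CPM (0.85 ± 0.19, adjusted p = 0.00313), and Picalm, a clathrin adaptor, rose by 1.12 ± 0.19. Among abundant transcripts that fell were Rassf4 (-1.36 ± 0.13), the chaperone gene Hspa8 (-0.75 ± 0.17), the actin-bundling gene Lcp1 (-0.48 ± 0.13), the translation factor gene Eif4g2 (-0.48 ± 0.14) and Serp1 (-0.54 ± 0.14). The call of Lcp1 was lost without untreated library 3, treated library 1, or the number 1 or 3 pair (adjusted p from 0.0515 to 0.112), that of Eif4g2 without untreated library 2 or 3, treated library 1 or 2, or the number 1, 2 or 3 pair (adjusted p from 0.0572 to 0.166) and that of Serp1 without untreated library 3, treated library 1, or the number 3 pair (adjusted p from 0.102 to 0.105).

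Whether the response differed from that of the other genotypes was tested on the difference itself, in 3 comparisons over 14261 genes. Compared with Smad2fl/fl, the other floxed line without Cre, 0 genes differed in the edgeR test, 464 had an unadjusted p under 0.05 (3.25%), the replicate block called 13 (0.0912%) and DESeq2 called 11. A gene that misses the threshold is not shown to respond alike. Compared with MyS3KO, the same line with Cre, 3 genes differed (0.021%): Id3, Alb and Gc. An unadjusted p under 0.05 was found for 917 genes (6.43%), and the block called 6 (0.0421%). In the libraries labelled MyS3KO, Smad3 was at 209, 181 and 161 CPM untreated and 289, 250 and 265 treated, which is below Smad3fl/fl but above the 38.0 to 66.6 CPM of the Smad2fl/fl libraries, so reads over Smad3 check that label only in part. Untreated Smad3fl/fl libraries held Id3 at 9.22, 6.40 and 2.44 CPM and treated ones at 13.4, 11.7 and 8.45, against 2.38, 1.87 and 1.03 and 24.6, 27.1 and 25.2 in the libraries labelled MyS3KO. The log2 response was therefore lower in Smad3fl/fl by 2.99 ± 0.48 (adjusted p = 0.0377), with all treated MyS3KO libraries above the treated Smad3fl/fl ones. Mean Id3 also went from 3.29 to 19.6 CPM in Smad2fl/fl and from 4.68 to 24.2 in MyS2KO, so a larger change than in Smad3fl/fl was not particular to MyS3KO. None of the 3 differences was called without untreated library 1 or 2, treated library 1 or 2, or the number 1 or 2 pair, nor in a fit of the 12 libraries of the Smad3 line. Compared with the mean response of the 3 other genotypes, 1 gene differed (0.00701%), Ermap, 693 had an unadjusted p under 0.05 (4.86%), and the block called 56 (0.393%). The Ermap call was lost without the number 1 pair.

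The 3 other genotypes also raised the genes that led this response. Smad7 changed by 5.32 ± 0.23 in Smad2fl/fl, 4.47 ± 0.22 in MyS2KO and 5.71 ± 0.23 in MyS3KO, and Tgfbi by 3.81 ± 0.24, 3.29 ± 0.24 and 4.59 ± 0.25. For neither gene was a difference from Smad3fl/fl called against Smad2fl/fl, MyS3KO or the mean of the 3 (adjusted p against the mean = 0.382 for Smad7 and 0.982 for Tgfbi). The difference from MyS2KO alone was not tested. Some responses differed only with the block, which also pairs the libraries of the other genotypes by number, a pairing less clear there. Plau changed by 0.86 ± 0.23, 0.35 ± 0.23 and 1.70 ± 0.24. Its response in Smad3fl/fl exceeded the mean of these by 1.23 ± 0.27, a difference called only with the replicate block (adjusted p = 0.295 without and 0.0169 with it). Untreated Plau was at 6.94, 6.53 and 8.13 CPM in Smad3fl/fl and at 23.0, 22.9 and 29.1 in Smad2fl/fl, 31.8, 19.3 and 35.9 in MyS2KO and 20.2, 10.3 and 11.5 in MyS3KO, so every other untreated library was higher. Rgs2 differed in the same way, at 10.6, 12.3 and 20.1 CPM in untreated Smad3fl/fl and 42.7, 33.0 and 44.4 in untreated Smad2fl/fl (difference from the mean of the 3 responses 1.08 ± 0.25, adjusted p = 0.334 without and 0.00948 with the block).

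**Figure D5:**
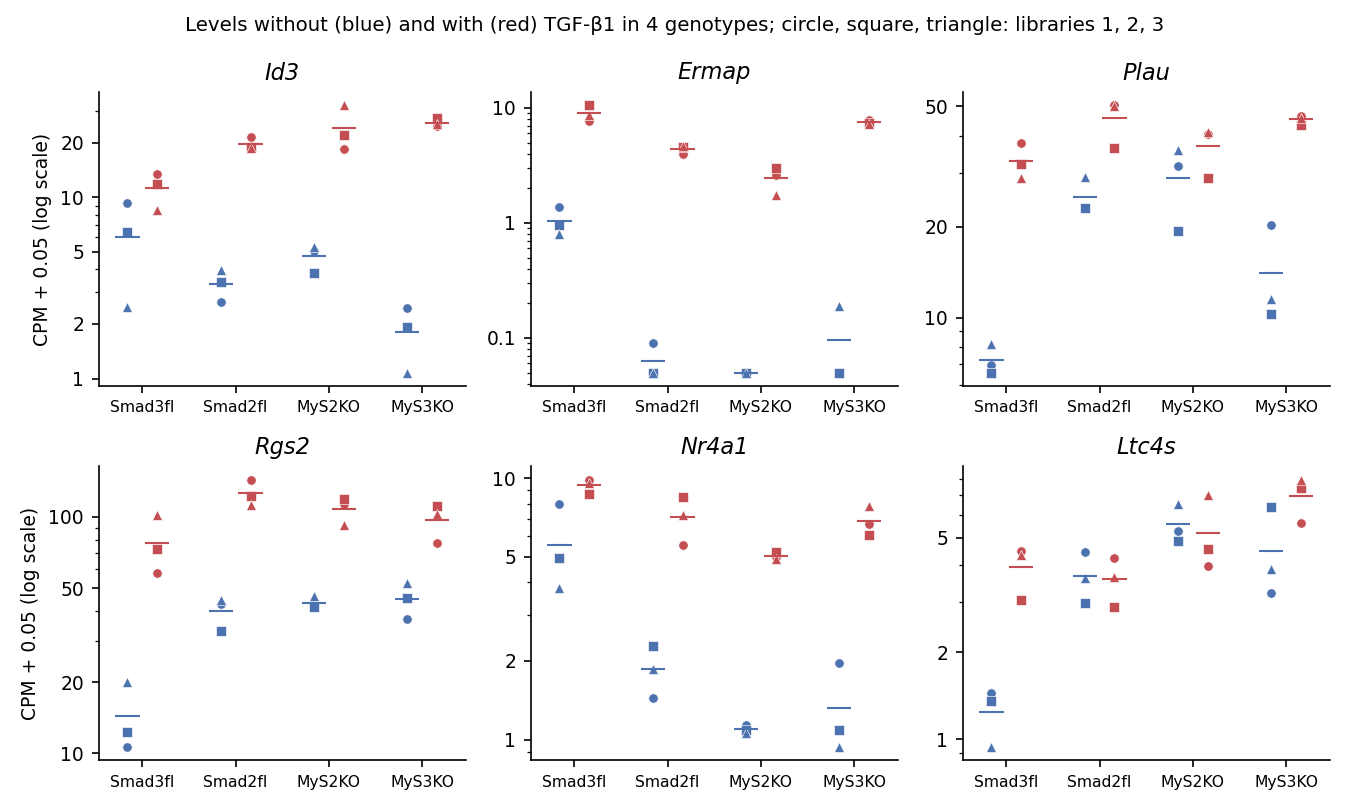
Levels of Id3, Ermap, Plau, Rgs2, Nr4a1 and Ltc4s (1 panel each; y axis, CPM + 0.05, log scale) in the 4 genotypes (x axis), untreated in blue and treated in red, with circles, squares and triangles for libraries 1, 2 and 3 and lines for group means. In Smad3fl/fl the untreated Ermap and Nr4a1 levels lie above those of the other genotypes, the untreated Plau, Rgs2 and Ltc4s levels lie below them, and the treated Id3 levels lie below them.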

How the data were processed

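Polyadenylated RNA of the 24 libraries was sequenced as pairs of 150 base reads. Cufflinks 2.1.1, TopHat2 2.0.9 and HTSeq 0.6.1 are named beside GRCm38.p6 and mm10, per the submitters' processing notes, and what each did, how reads were counted and whether strand was used is not given in the sources used here. The authors deposited raw read counts for 54532 genes, of which 26189 had no read, and FPKM values. The deposited FPKM values equal a gene's share of the unscaled library total times a constant within 1%, where low counts were left out. They lack the scaling behind the CPM values here, and were used only to compare levels between genes.

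Counts were scaled by TMM factors, kept by filterByExpr on the 8 groups and fitted with edgeR 4.0.16 (limma 3.58.1, R 4.3.3) over all 24 libraries with 1 mean per group, which gives 16 residual degrees of freedom. The median biological coefficient of variation was 21.2%. The quasi-likelihood test was used, with Benjamini-Hochberg adjustment over 14261 genes and a threshold of 0.05. The difference of responses was tested as a contrast of the same fit.

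Same-numbered libraries deviated together in Smad3fl/fl (r = 0.4452, 0.345 and 0.3339, the highest other pair -0.0921), a pairing seen in the data and not stated in the labels. The block paired libraries by number in all 4 genotypes, and this pairing was less clear in the others. There r was 0.04652, 0.1347 and 0.1589 in Smad2fl/fl (highest other pair 0.03842) and 0.154, 0.2226 and 0.4051 in MyS2KO (0.1968). In MyS3KO it was 0.4137, 0.04388 and 0.2872 (0.2852). Alternatives were DESeq2 1.42.0, other size factors, no filter, the block, fewer libraries and each library or pair left out. Replicates were not duplicates of one library. Named were called genes of at least 5 CPM with groups apart, namely the 12 largest rises and falls and the 8 largest changes of CPM in each direction, called list members, SMAD genes and Lyz2. For differences of responses the rule took the 8 largest each way. Members and lists were chosen with earlier results of these data known. Exact intervals are 95% and cover counting error only. Some genes named by this rule, and 1 list, are not reported here. Gm and Rik genes were counted and not described, other than those given as chosen after their values were seen.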

Additional observations from a re-analysis of the deposited data

Results flagged for a closer look

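The TGF-β1 response of 4 genes differed from that of other genotypes in the test of the difference itself (edgeR quasi-likelihood test, Benjamini-Hochberg adjustment), and these differences are given as values.

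Id3 responded less in Smad3fl/fl than in the libraries labelled MyS3KO, by a log2 difference of -2.99 ± 0.48 (adjusted p = 0.0377), from responses of 0.89 ± 0.32 and 3.88 ± 0.37. Its levels in Smad2fl/fl and MyS2KO are given above. Alb, which encodes serum albumin, went from 10.8, 11.9 and 19.6 to 9.83, 7.57 and 19.0 CPM with TGF-β1 in Smad3fl/fl, against untreated and treated values of 15.3, 26.3 and 18.4 and of 69.3, 93.9 and 71.5 in the libraries labelled MyS3KO. Its difference was -2.19 ± 0.39 (adjusted p = 0.0481), and no treated library of one genotype overlapped the other. Mean Alb went from 14.4 to 16.5 CPM in Smad2fl/fl and from 17.5 to 39.4 in MyS2KO. Gc, which encodes the vitamin D-binding protein of plasma, went from 0.798, 0.676 and 0.939 to 0.272, 0.352 and 0.727 CPM in Smad3fl/fl, against 0.894, 1.53 and 1.08 untreated and 4.35, 6.15 and 4.99 treated in those labelled MyS3KO. Its difference was -3.00 ± 0.53 (adjusted p = 0.0481). Mean Gc went from 0.690 to 0.888 CPM in Smad2fl/fl and from 1.23 to 2.73 in MyS2KO.

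Ermap, an erythroid membrane protein gene, went from 1.32, 0.901 and 0.752 to 7.70, 10.5 and 8.67 CPM in Smad3fl/fl, a response of 3.16 ± 0.35. Untreated libraries of the other genotypes had 0.14 CPM or less, and the difference from the mean of their responses was -4.61 ± 0.60 (adjusted p = 0.00324). The fitted responses of the other genotypes rest on untreated groups near 0, so the size of that difference depends on the fit. The erythroid marker Gata1 was at 0 in the Smad3fl/fl libraries.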

How the results depend on the processing

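No called gene changed sign under any alternative. Of 261 called genes named by the rules 146 kept their call in every alternative, 115 lost it in at least 1, and 79 in more than 3. For the response in Smad3fl/fl (1714 called, 910 higher and 804 lower), the replicate block gave 3306 (1564 higher, 1742 lower). Only the 6 Smad3fl/fl libraries gave 1004 (621 and 383), and only the 12 of the Smad3 line 1228 (751 and 477). Leaving out 1 library gave 1136 to 1993 (673 to 898 higher, 463 to 1095 lower), and leaving out the number 1, 2 or 3 pair gave 1130, 1138 and 978 (633, 614 and 572 higher, 497, 524 and 406 lower). DESeq2 called 2097, other size factors 1689, and no filter 2017.

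For the difference from Smad2fl/fl (0 called), no filter gave 22 (6 higher, 16 lower), the replicate block 13 (2 and 11) and DESeq2 11 (3 and 8). Leave-one-out fits gave 0 to 2 (0 to 1 higher, 0 to 2 lower). For the difference from MyS3KO (0 higher, 3 lower), other size factors gave 1 (0 and 1), no filter 161 (145 and 16), the replicate block 6 (1 and 5), the 12 libraries of the line 0 and DESeq2 15 (2 and 13). Leave-one-out fits gave 0 to 6 (0 to 2 higher, 0 to 4 lower). For the difference from the mean of the other 3 genotypes (0 higher, 1 lower), no filter gave 23 (14 and 9), the replicate block 56 (19 and 37) and DESeq2 15 (7 and 8). Leave-one-out fits gave 0 to 7 (0 to 2 higher, 0 to 5 lower). The cause of these moves was not tested, other than that fewer libraries leave fewer degrees of freedom. A fit of only the 6 libraries cannot give differences between genotypes. Where a library was left out and 2 remained in its group, that group's spread was shared with the other groups. At the depth of these libraries, genes under 1 CPM rest on few reads, and several rises there have no more than 3 reads in the untreated group.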

Other observations

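A cluster of zinc finger genes at the distal end of chromosome 2 rose together. In the window chr2:175129493-178078476 (GRCm38), chosen after the values were seen, 12 genes of the C2H2 zinc finger family were tested. Of these 9 rose and none fell, all 12 had a log2 change above 0, and their median was 2.13. Among the other 349 tested members of that family 25 rose and 12 fell, with a median of 0.27. Gm14326 was at 5.59, 5.72 and 1.83 CPM in untreated libraries 1 to 3 and at 17.6, 20.1 and 20.1 in the treated ones (2.13 ± 0.35, adjusted p = 0.000169). Zfp931 went from 1.56, 1.26 and 0.611 to 6.84, 4.97 and 3.58 CPM (2.16 ± 0.39, adjusted p = 0.000458). The treated libraries lay above the untreated ones in both, and untreated library 3 was the lowest. Genes of this cluster are near-identical copies, so reads may be shared among them and the 12 values are not independent.

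Over the transcription factor families of the list used here, 87 of 789 tested factors rose and 53 fell (17.7% called, against 12% of all tested genes). In the ETS family, which holds the myeloid regulator PU.1, 6 of 18 fell and 2 rose, and among bZIP factors, which hold AP-1 and C/EBP proteins, 11 of 44 fell and 5 rose. Among E2F factors, regulators of S phase genes, 3 of 9 rose and 1 fell. None of the 8 tested IRF genes, regulators of interferon responses, was called.

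Some genes were read almost only in the treated group. Prss46, a serine protease gene, had 1 read in the 3 untreated libraries together and 77 in the treated ones, a ratio of 84.2 (95% exact interval 14.7 to 3369, counting error only). Lmnb2, which encodes a nuclear lamin, had 1 and 28 reads, a ratio of 30.6 (5.06 to 1252). Bmyc, a relative of Myc, had 0 and 24 reads and was at least 8.7-fold higher, taking 3 reads over the untreated group as the floor. Gm20544, chosen here after its values were seen, had 0 and 140 reads and was at least 51-fold higher on the same floor.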
